A study of Mus musculus with 4 samples.

Results

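Transcripts of Ifng, the gene of interferon-gamma, were found in 14201 of the 30099 T cells examined here and not in the other 15898, and the 2 sets of cells were compared gene by gene. The cells are donor CD4 T cells with the transgenic TS1 T cell receptor, from BALB/c RAG2-/- TS1 Tg mice, taken from recipients with graft-versus-host disease (GVHD) 4 weeks after transplantation. RAG2 is needed to assemble receptor genes, so T cells of that background carry only the transgenic one. Cells were sorted from 5 compartments (spleen, colon, skin, and the intraepithelial and lamina propria layers of the small intestine), tagged by compartment and pooled, giving 2 expression libraries (replicates 1 and 2) and a hashtag library for each. No untreated or syngeneic group is among these samples. The hashtag libraries list 0 hashtag features. The compartment of each cell is therefore unknown here, and a difference between Ifng-detected and Ifng-undetected cells cannot be told apart from a difference in tissue of origin. Separate animals for the replicates are not stated in the labels. SDs measure the spread between 2 pooled libraries. The p-values rest on how far the class difference varied between these libraries, with variance shared across genes. Either spread may be technical.

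A barcode counted as a T cell if it had at least 1500 UMIs (molecules counted once each), at least 500 genes, at most 10% mitochondrial UMIs and at least 1 UMI of Cd3e, Cd3d or Cd3g. Of 30143 barcodes that passed the first 3 limits, 30099 had a Cd3 UMI, 15260 in replicate 1 and 14839 in replicate 2. Every cell was then thinned at random to 1500 UMIs, so that a deeper cell had no better chance of an Ifng UMI. The UMIs of all Ifng-detected cells (at least 1 Ifng UMI) and of all undetected cells (0 Ifng UMIs) were summed within each library, and levels are given in CPM, each gene's counts scaled to a fixed total of UMIs in such a sum. Ifng itself chose the classes, so its own level is given as a description and was left out of every test.

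Interferon-gamma is the defining cytokine of type 1 helper T cells. In T cells its gene is driven by the lineage factors T-bet (Tbx21) and Eomes together with STAT4, downstream of interleukin-12 and interleukin-18, and is switched on within hours by T cell receptor signals that act through NFAT, AP-1 and NF-kB factors. The protein binds the IFNGR1 and IFNGR2 receptor chains and acts through the kinases JAK1 and JAK2 on genes such as Irf1, Socs1 and the guanylate-binding proteins. In GVHD it is made by alloreactive T cells in the target tissues, where it acts on epithelium, antigen-presenting cells and the T cells themselves.

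Ifng lies at chr10:118441046-118445892 on the plus strand of mm10 (GENCODE annotation). Its upstream region is shown with those of Il2 (chr3:37120523-37125959), the gene with the largest rise in Ifng-detected cells among those of at least 50 CPM, and Ccl3 (chr11:83647844-83649355), the chemokine gene with the largest rise. Both were chosen because they moved with Ifng. Each sequence holds the 250 bases before the gene's RefSeq start site in GRCm38.p6, 5′ to 3′ on the gene's strand, with matches to the NFAT core GGAAA (or its complement TTTCC) and to the TATA element TATAAA in capitals.
Ifng (chr10:118440796-118441045, plus strand): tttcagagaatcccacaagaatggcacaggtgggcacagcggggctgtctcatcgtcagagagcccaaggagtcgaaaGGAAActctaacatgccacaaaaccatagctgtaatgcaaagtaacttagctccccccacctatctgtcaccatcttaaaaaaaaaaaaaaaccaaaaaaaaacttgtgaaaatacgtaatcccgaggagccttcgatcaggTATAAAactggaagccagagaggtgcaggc
Il2 (chr3:37125955-37126204, minus strand): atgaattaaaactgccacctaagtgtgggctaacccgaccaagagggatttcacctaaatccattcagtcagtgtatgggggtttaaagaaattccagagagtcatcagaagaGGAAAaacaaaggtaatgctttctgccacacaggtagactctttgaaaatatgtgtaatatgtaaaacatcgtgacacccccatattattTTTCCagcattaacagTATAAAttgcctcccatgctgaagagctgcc
Ccl3 (chr11:83649379-83649628, minus strand): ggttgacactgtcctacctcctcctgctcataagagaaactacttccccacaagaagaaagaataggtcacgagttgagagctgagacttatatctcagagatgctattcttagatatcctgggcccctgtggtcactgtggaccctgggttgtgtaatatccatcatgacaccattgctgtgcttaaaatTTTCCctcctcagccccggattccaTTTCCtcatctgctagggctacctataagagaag
GGAAA was found on either strand at -172 in the Ifng window, counted from the start site, at -137 and -47 in that of Il2 and at -59 and -34 in that of Ccl3. TATAAA was found at -30 in Ifng and at -31 in Il2. The AP-1 site TGACTCA and the T-box element AGGTGTGA were in none of the 3 windows. Of the 10 genes with the largest rises among those of at least 50 CPM, 8 had an entry (Il10 and Ccl4 had none), and 7 of these 8 windows held GGAAA. The same letters were in 55.6% of 32851 RefSeq windows of this length, TATAAA in 12.4%, TGACTCA in 4.46% and AGGTGTGA in 1.12%, so these matches are a description of the windows only.

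Ifng was spread over many cells at low UMI numbers, with a small tail of very high cells. Of the T cells of replicate 1, 54.6% had 0 Ifng UMIs after thinning, 23.2% had 1, 9.86% had 2, 8.30% had 3 to 5 and 3.98% had 6 or more. In replicate 2 the shares were 51.0%, 24.0%, 10.6%, 9.60% and 4.87%. The 607 and 723 cells with 6 or more UMIs held 41.6% and 44.1% of all Ifng UMIs, and the highest cells held 156 and 167 of their 1500 UMIs. The share of Ifng-detected cells was 45.4% in replicate 1 (95% exact binomial interval 44.6 to 46.2, counting error only) and 49.0% in replicate 2 (48.2 to 49.8), a mean of 47.2% ± 2.58 (SD, n = 2). Before thinning, 9919 and 10765 cells had an Ifng UMI, 65.0% and 72.5% of all, against 6925 and 7276 after it, so part of the undetected class had an Ifng UMI at full depth.

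**Figure D1:**
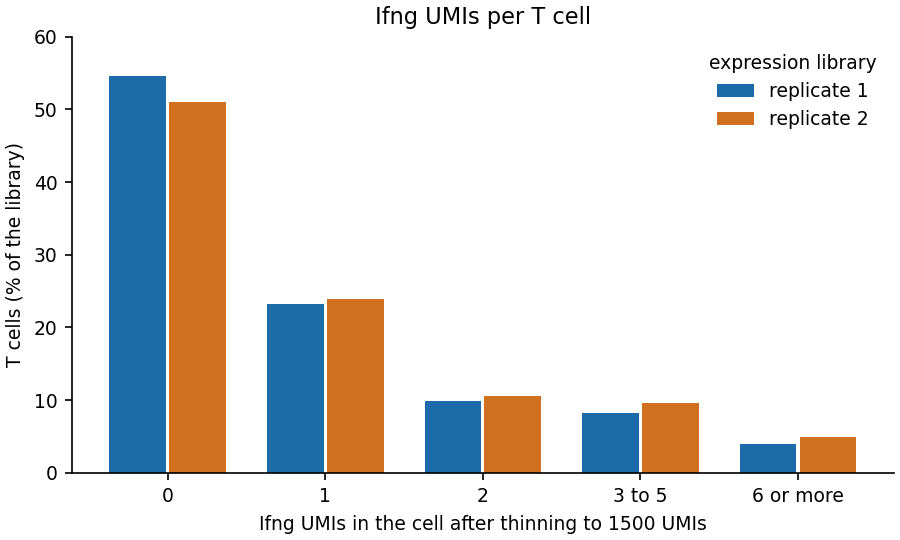
Share of T cells (y axis, % of the library) by the number of Ifng UMIs in the cell after thinning to 1500 UMIs (x axis), with 1 bar for each expression library. In both libraries the bar at 0 UMIs is the tallest, at 54.6% and 51.0%, and 3.98% and 4.87% of cells have 6 or more.

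Free RNA also gave Ifng UMIs. In barcodes of fewer than 100 UMIs, Ifng stood at 841 CPM in replicate 1 and 940 CPM in replicate 2, against 830 and 958 CPM over all T cells. In cells with at least 5% of their UMIs from neutrophil markers, a type that should lack Ifng, 20 of 73 cells in replicate 1 (27.4%, 95% interval 17.6 to 39.1) and 13 of 77 in replicate 2 (16.9%, 9.31 to 27.1) had an Ifng UMI at the same 1500 UMIs. Their median depths before thinning were 4076 and 10426 UMIs, against 3138 and 3860 for all T cells, and Cd3e was found in 50.7% and 22.1% of them. Cells picked by at least 3 neutrophil markers in place of that share had Ifng in 35.1% of 114 cells (26.4 to 44.6) and 44.1% of 304 cells (38.4 to 49.9), at median depths of 3211.5 and 3250.5 UMIs and with Cd3e in 62.3% and 72.4%. Cells picked by at least 3 basophil and mast cell markers had it in 44.8% of 29 cells of replicate 1 (26.4 to 64.3). The share among T cells was above the intervals of the cells richest in neutrophil UMIs and of these lower sets. It was inside that of the cells with 3 neutrophil markers in replicate 2 and of the basophil set. A cell with a single Ifng UMI may therefore carry it from free RNA. The part of free RNA in the comparisons was not tested beyond the contrast of cells with 2 or more UMIs against cells with 1.

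The 2 expression libraries held 89427990 and 108082997 UMIs in all, and 195 barcodes occurred among the T cells of both. The classes differed in more than Ifng. A Cd8a UMI was found in 27.4% and 24.7% of Ifng-detected cells and in 37.5% and 34.2% of undetected cells. Median depth before thinning was 2926 and 3812.5 UMIs in Ifng-detected cells and 3341 and 3904 in undetected cells. At least 2 proliferation UMIs were found in 44.5% and 36.7% of Ifng-detected and in 46.3% and 41.6% of undetected cells. Cd3e was present after thinning in 94.1% and 93.0% of Ifng-detected and in 92.2% and 90.7% of undetected cells, yet cells of other types had passed the Cd3 limit. The 9 neutrophil markers together reached 675 and 1027 CPM in the Ifng-detected sums and 2391 and 4202 CPM in the undetected sums. The 8 erythroid markers reached 28.7 and 42.2 against 203 and 249.8 CPM, the 11 myeloid antigen-presenting markers 260.0 and 280.3 against 438 and 612 CPM, and the 11 epithelial markers 76.1 and 53.7 against 138 and 110.4 CPM. B cell markers stayed below 5 CPM in every sum.

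Across all genes, 11321 passed the filter on low counts. In edgeR's quasi-likelihood test with the library as a block and Benjamini-Hochberg adjustment over all genes, 892 genes rose in Ifng-detected cells (7.88%) and 696 fell (6.15%) at an adjusted p under 0.05. Those are the shares against which every count below is read. The median log2 fold change of all genes was close to 0 (6.11e-05). Most changes were small, with a median size of 0.33 on the log2 scale among the called genes: 25 genes rose and 215 fell by more than 2-fold. Leaving out all cells with at least 2 markers of another cell type gave 851 rises and 591 falls, of which 30 and 35 exceeded 2-fold. Of the 215 falls of more than 2-fold, 32 were still called falling there, whereas 23 of the 25 such rises were still called rising. The calls rest on 4 sums with 1 residual degree of freedom. Without the block 235 genes were called, and the Wald test of DESeq2 called 308, of which 71.4% rose against 56.2% in edgeR.

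Cytokine genes rose together with Ifng. Of 18 listed, 15 were tested, 12 rose and 1 fell, with a median log2 fold change of 1.08. Il2, the T cell growth factor, stood at 60.5 and 54.2 CPM in Ifng-detected cells of replicates 1 and 2 and 13.0 and 14.02 CPM in undetected cells (log2 fold change 2.13 ± 0.085 SE, edgeR adjusted p = 5.77e-15). Csf2, which encodes GM-CSF, had 233 and 201 against 86.7 and 79.4 CPM (log2 fold change 1.44 ± 0.041 SE, edgeR adjusted p = 1.13e-17). Il10, an anti-inflammatory cytokine, had 64.1 and 87.9 against 25.99 and 33.7 CPM (log2 fold change 1.40 ± 0.065 SE, edgeR adjusted p = 7.58e-14), and Tnf 240.1 and 215 against 124 and 128 CPM (log2 fold change 0.90 ± 0.043 SE, edgeR adjusted p = 1.32e-13). For these 4 genes both Ifng-detected sums lay above both undetected sums. Cytokines of other helper lineages were also higher: Il13, of type 2 cells, at 86.5 and 108 against 54.2 and 40.7 CPM (log2 fold change 1.08 ± 0.094 SE, edgeR adjusted p = 7.71e-09), and Il22, which acts on epithelium, at 15.9 and 11.8 against 5.92 and 4.67 CPM (log2 fold change 1.44 ± 0.15 SE, edgeR adjusted p = 9.20e-08). DESeq2 and the fit without thinning did not call Il13. Il4, another classical type 2 cytokine, fell at very low levels (0.481 and 0.733 against 1.84 and 3.26 CPM, log2 fold change -2.00 ± 0.39 SE, edgeR adjusted p = 7.55e-04). In replicate 1 it had 5 UMIs in Ifng-detected and 23 in undetected cells, so this call rests on few UMIs. Il5 was not tested. Il3 had 21 and 30 UMIs in the Ifng-detected cells and 0 and 3 in the undetected cells, and Il17a 10 and 44 against 3 and 3, so both calls rest on few UMIs.

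How many cells carried these rises differed from gene to gene. The 10 Ifng-detected cells with the most Il2 UMIs held 77.7% of the Il2 UMIs of their class in replicate 1 and 83.2% in replicate 2, with 132 and 173 UMIs in the highest cell. Among undetected cells the 10 highest held 32.5% and 39.0%. An Il2 UMI was found in 136 and 89 Ifng-detected cells and in 120 and 107 undetected cells. When cells with an Il2 UMI were counted in place of UMIs, the log2 fold change was 0.21 ± 0.14 SE and was not called (edgeR adjusted p = 0.375). The share of cells with an Il2 UMI was higher in the Ifng-detected class of replicate 1 (1.96% against 1.44%) and lower in that of replicate 2 (1.22% against 1.41%), so the rise of Il2 was one of UMIs in few cells. Il22 was concentrated too, with 73.9% and 76.7% of its UMIs in 10 Ifng-detected cells. Those shares were 41.7% and 33.6% for Xcl1, 27.1% and 38.8% for Il13, 13.3% and 21.1% for Csf2, 11.6% and 13.5% for Il10, 7.90% and 8.09% for Tnf, and 4.04% and 2.97% for Ccl4. Counted by cells, Csf2 (0.73), Il10 (1.07), Tnf (0.64), Il13 (0.54) and Xcl1 (0.70) kept a called rise on the log2 scale.

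Chemokine genes rose as well. Of 8 tested, 6 rose and 1 fell (median log2 fold change 0.84). Ccl3 and Ccl4, neighbouring genes of secreted chemoattractants, had the highest levels among the strong rises. Ccl4 stood at 5559.6 and 6364 CPM in Ifng-detected cells of replicates 1 and 2 and 2538 and 2836 CPM in undetected cells (log2 fold change 1.20 ± 0.020 SE, edgeR adjusted p = 3.08e-22), and Ccl3 at 1128 and 1386 against 456 and 518 CPM (log2 fold change 1.41 ± 0.027 SE, edgeR adjusted p = 2.38e-21). Ccl1 and Xcl1, a ligand of CCR8 and a ligand of XCR1 on cross-presenting dendritic cells, had 637 and 565 against 287 and 252 CPM (log2 fold change 1.21 ± 0.027 SE, edgeR adjusted p = 1.22e-19) and 124 and 163 against 67.0 and 48.7 CPM (log2 fold change 1.35 ± 0.10 SE, edgeR adjusted p = 6.19e-10). Xcl1 was not called by DESeq2. Ccl5, the most abundant chemokine transcript, barely differed over all T cells, with 31784 and 36579 against 31542 and 34453 CPM (log2 fold change 0.098 ± 0.020 SE, edgeR adjusted p = 0.00106). Its groups overlapped between libraries, and DESeq2 did not call it. Its values by Cd8a class, which differed, are given below. Cxcl9, which interferon-gamma induces mainly in myeloid cells, was near its detection limit and fell (0.674 and 1.10 against 2.08 and 2.47 CPM, log2 fold change -1.30 ± 0.37 SE, edgeR adjusted p = 0.0183), together with the myeloid markers given above. In cells without markers of another type, all 7 tested chemokine genes rose, and Cxcl9 was not tested.

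**Figure D2:**
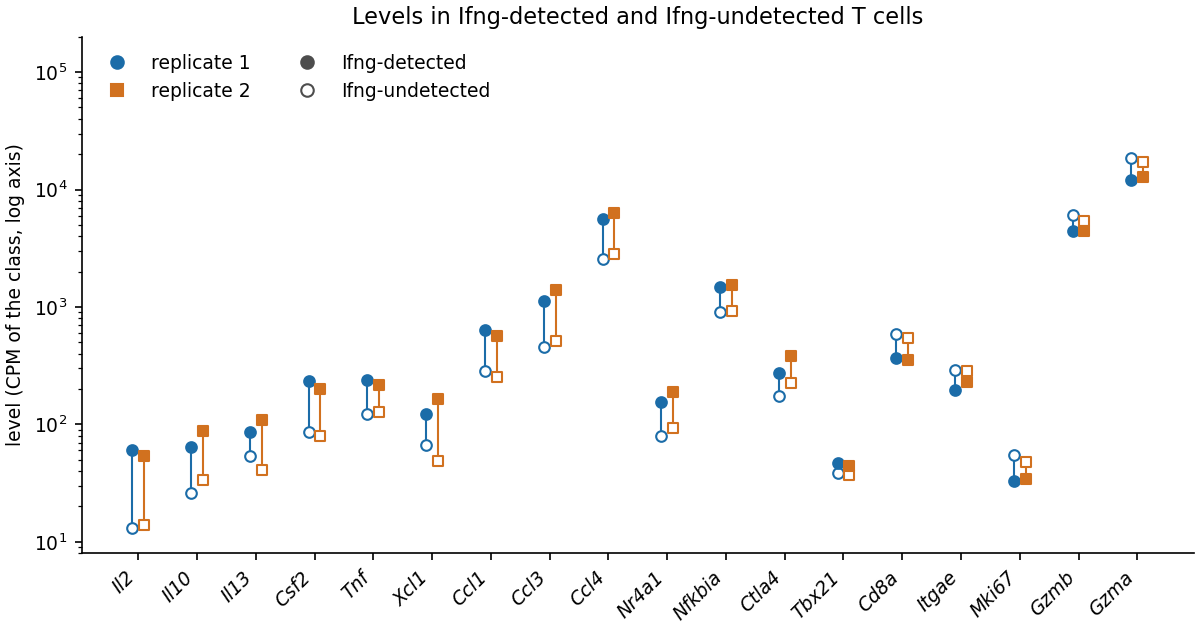
Level of 18 genes (y axis, CPM on a log axis) in Ifng-detected cells (filled) and undetected cells (open) of replicate 1 (blue circles) and replicate 2 (orange squares), with a line joining the 2 classes of a library. Cytokine and chemokine genes such as Il2 and Ccl4 are higher in Ifng-detected cells in both libraries, and Cd8a, Itgae, Mki67, Gzmb and Gzma are lower.

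Genes that a T cell receptor signal switches on within minutes to hours rose throughout. All 21 listed genes of this kind were called, with a median log2 fold change of 0.68, and all 21 rose also without cells that carried markers of another type. The orphan nuclear receptor gene Nr4a1 (Nur77) had 154 and 187 CPM in Ifng-detected cells of replicates 1 and 2 and 79.7 and 92.7 CPM in undetected cells (log2 fold change 1.03 ± 0.043 SE, edgeR adjusted p = 1.02e-14). Egr3 had 20.7 and 21.9 against 8.16 and 8.55 CPM (log2 fold change 1.40 ± 0.12 SE, edgeR adjusted p = 3.74e-09), Nr4a3 37.0 and 47.5 against 17.7 and 23.8 CPM (log2 fold change 1.08 ± 0.080 SE, edgeR adjusted p = 4.80e-10), Egr2 24.8 and 26.7 against 12.2 and 14.7 CPM (log2 fold change 0.98 ± 0.10 SE, edgeR adjusted p = 1.03e-07) and Egr1 87.8 and 87.1 against 56.8 and 58.1 CPM (log2 fold change 0.66 ± 0.053 SE, edgeR adjusted p = 2.51e-09). Nr4a1 was spread over many cells, with a UMI in 1171 and 1436 Ifng-detected cells and in 805 and 825 undetected cells. Egr3 was found in 168 and 172 Ifng-detected cells, and 10 of them held 20.0% and 21.8% of its UMIs in that class. Rgs16, a brake on G protein signals, and Tagap, a gene of activated T cells, were among the 10 largest rises of genes with at least 50 CPM, at 1.11 ± 0.045 and 1.06 ± 0.053 (log2 ± SE).

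NF-kB genes followed, with 15 of 17 rising and 0 falling (median 0.38). Nfkbia, the inhibitor that NF-kB itself induces, had 1465 and 1538 CPM in Ifng-detected cells of replicates 1 and 2 and 899 and 927 CPM in undetected cells (log2 fold change 0.77 ± 0.022 SE, edgeR adjusted p = 1.03e-17). The related inhibitor gene Nfkbid rose by 0.98 ± 0.056, the subunit gene Rel by 0.76 ± 0.058 and the deubiquitinase gene Tnfaip3 by 0.76 ± 0.032 (log2 ± SE). Of 9 genes of the calcium and NFAT pathway, 2 rose, Nfatc1 (0.28 ± 0.061) and the calcium channel gene Orai1 (0.44 ± 0.040), and the other 7 did not pass. Of 16 genes of the T cell receptor complex and its first kinases, 7 rose, by at most 0.41 (Cd2), with a median of 0.078. Of 9 regulators of RNA decay, 8 rose (median 0.45), among them Zfp36 (0.71 ± 0.036) and Zc3h12a (0.62 ± 0.064), whose proteins shorten the life of cytokine mRNAs.

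Surface molecules of recent activation moved the same way. Of 9 TNF family ligand genes 7 rose (median 0.43), led by Tnfsf9, the ligand of 4-1BB, at 57.3 and 42.4 against 27.3 and 24.0 CPM (log2 fold change 1.01 ± 0.077 SE, edgeR adjusted p = 8.90e-10), Cd40lg (0.68 ± 0.049) and Cd70 (0.67 ± 0.13). Fasl, which triggers apoptosis in target cells, had 122 and 143 against 99.7 and 115 CPM (log2 fold change 0.35 ± 0.043 SE, edgeR adjusted p = 1.61e-06). Of 9 co-stimulatory receptor genes 7 rose (median 0.32), with Cd28 at 360.0 and 389 against 239 and 269 CPM (log2 fold change 0.61 ± 0.030 SE, edgeR adjusted p = 2.99e-13), Tnfrsf4 at 0.51 ± 0.037 and Icos at 0.44 ± 0.037. Inhibitory receptors split: 5 of 11 listed genes rose and 2 fell (median 0.16). Ctla4 had 276 and 382 against 174 and 225 CPM (log2 fold change 0.77 ± 0.034 SE, edgeR adjusted p = 3.45e-14), Pdcd1 174 and 139 against 119 and 98.3 CPM (log2 fold change 0.57 ± 0.041 SE, edgeR adjusted p = 2.75e-10) and Lag3 211 and 238 against 189 and 183 CPM (log2 fold change 0.32 ± 0.042 SE, edgeR adjusted p = 5.48e-06), while Cd244 had 54.4 and 62.8 against 83.9 and 87.4 CPM (log2 fold change -0.50 ± 0.056 SE, edgeR adjusted p = 4.19e-07). Pdcd1, Lag3, Ctla4 and Fasl were not called without the block. Of 12 cytokine feedback genes, 8 rose (median 0.29), including the kinase gene Pim1 (0.63 ± 0.028) and Il2ra, the high-affinity interleukin-2 receptor chain (0.51 ± 0.085).

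The lineage factors of type 1 cells and their receptors had small fold changes. Of 17 listed genes 8 rose and 0 fell, with a median of 0.19. Tbx21 had 47.4 and 44.5 CPM in Ifng-detected cells of replicates 1 and 2 and 38.2 and 37.1 CPM in undetected cells (log2 fold change 0.34 ± 0.069 SE, edgeR adjusted p = 0.00119). Eomes had 60.6 and 65.5 against 50.7 and 54.2 CPM (log2 fold change 0.32 ± 0.059 SE, edgeR adjusted p = 4.63e-04) and Stat4 77.2 and 94.2 against 72.5 and 86.2 CPM (log2 fold change 0.16 ± 0.050 SE, edgeR adjusted p = 0.0340). Both Ifng-detected sums lay above both undetected sums for Tbx21 and Eomes, but for Stat4 the groups overlapped between libraries. Il18r1, a chain of the interleukin-18 receptor, rose by 0.37 ± 0.043 and Prdm1 (Blimp-1) by 0.50 ± 0.068. Bhlhe40, a factor that supports cytokine output of helper cells, changed most in this list, at 581 and 570.1 against 381 and 366 CPM (log2 fold change 0.67 ± 0.026 SE, edgeR adjusted p = 3.95e-15). Il12rb2 (0.32 ± 0.14, edgeR adjusted p = 0.153), Il18rap (0.19 ± 0.064, 0.0525) and Cxcr3 (-0.062 ± 0.048, 0.481) did not pass. The calls of Tbx21, Eomes and Stat4 were lost under several other settings, among them DESeq2. Among the other helper factors, Maf rose by 0.50 ± 0.035 and Rora by 0.34 ± 0.033.

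Genes of the interferon-gamma pathway differed modestly. Of 21 tested, 13 rose and 3 fell (median 0.22). The falls were Ifngr2 and the response genes Irgm1 and Iigp1. Without cells with markers of another type, Irgm1 was still called falling, Iigp1 was not called and Ifngr2 was not tested. Ifngr1, the ligand-binding receptor chain, had 287 and 274 against 232 and 223 CPM (log2 fold change 0.35 ± 0.032 SE, edgeR adjusted p = 1.53e-08). Ifngr2, the signalling chain, was close to the detection limit and lower (1.44 and 0.916 against 2.72 and 2.82 CPM, log2 fold change -1.18 ± 0.33 SE, edgeR adjusted p = 0.0183). Irf1, a transcription factor gene that interferon-gamma induces, had 322 and 336 against 268 and 279 CPM (log2 fold change 0.31 ± 0.030 SE, edgeR adjusted p = 3.32e-08), Irf8 rose by 0.67 ± 0.073 and the feedback inhibitors Socs1 and Socs3 by 0.44 ± 0.038 and 0.67 ± 0.055.

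**Figure D3:**
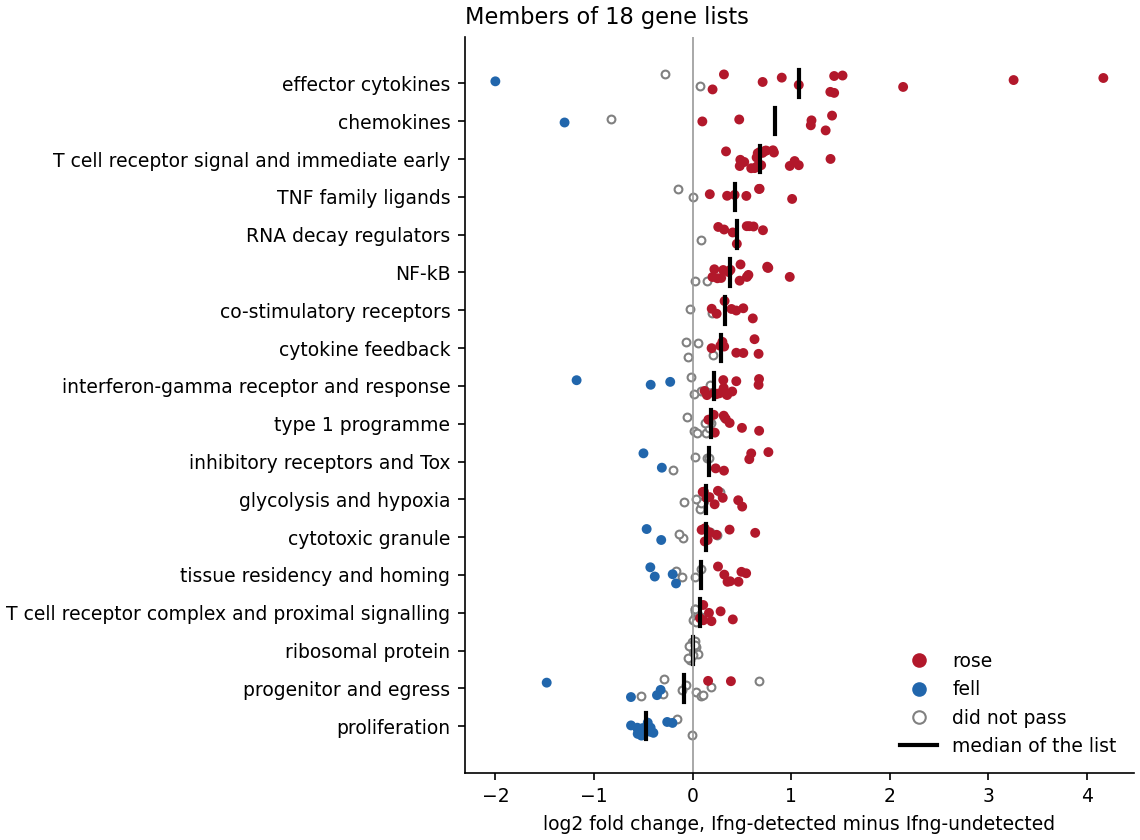
Log2 fold change (x axis, Ifng-detected minus undetected) of each tested gene in 18 gene lists (rows). Red points rose, blue points fell, open points did not pass the test, and the black bar is the median of the list, from 1.08 for effector cytokines to -0.48 for proliferation. The 2 points furthest right, Il3 and Il17a, rest on few UMIs.

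Granule genes moved in both directions. Of 14 tested, 8 rose and 2 fell (median 0.14). Gzma, which encodes granzyme A, had 12084 and 12836 CPM in Ifng-detected cells of replicates 1 and 2 and 18578 and 17075 CPM in undetected cells (log2 fold change -0.47 ± 0.029 SE, edgeR adjusted p = 2.29e-11). Gzmb, encoding granzyme B, had 4428 and 4427 against 6076 and 5376 CPM (log2 fold change -0.32 ± 0.027 SE, edgeR adjusted p = 4.76e-09). Both were lower in Ifng-detected cells in each library. The share of cells with a UMI of Gzma was close in both classes, 84.0% and 84.9% of Ifng-detected and 84.9% and 86.1% of undetected cells, so most of the difference was in UMIs per cell. Neither call held without thinning (-0.16 and -0.10 on the log2 scale), and that of Gzmb was not made by DESeq2. Srgn, the proteoglycan that packs granules, rose by 0.37 ± 0.020.

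Cd8a, Itgae and Ccr9 were lower in Ifng-detected cells. Of 13 tested CD8, NK and gamma-delta genes, 4 rose and 5 fell (median -0.24). Klrd1, Klrk1, Klrc1 and Klre1 rose, and Cd8a, Cd8b1, Tcrg-C4, Tyrobp and Fcer1g fell. Without cells with markers of another type, 4 rose and 3 fell (median 0.033), and Tyrobp and Fcer1g were not called. In Cd8a-undetected cells the median of the 12 tested genes was -0.0055. Cd8a, which some intestinal CD4 T cells express as a homodimer, had 368 and 351 CPM in Ifng-detected cells of replicates 1 and 2 and 594 and 543 CPM in undetected cells (log2 fold change -0.61 ± 0.027 SE, edgeR adjusted p = 3.95e-14), while Cd4 had 199 and 216 against 194 and 200.4 CPM (log2 fold change 0.12 ± 0.035 SE, edgeR adjusted p = 0.0200). Itgae (CD103), the integrin that binds epithelial E-cadherin, had 195 and 231 against 289 and 287 CPM (log2 fold change -0.38 ± 0.042 SE, edgeR adjusted p = 3.11e-07), and Ccr9, the small-intestinal homing receptor, 83.6 and 98.6 against 121 and 133 CPM (log2 fold change -0.43 ± 0.046 SE, edgeR adjusted p = 2.00e-07). Other genes of tissue residency and homing rose, so that of 15 tested 7 rose and 4 fell (median 0.083). Cd69, a retention and early activation molecule, had 1030.4 and 1111 against 773 and 799 CPM (log2 fold change 0.49 ± 0.023 SE, edgeR adjusted p = 1.31e-13), and Ccr2 192 and 211 against 142 and 160.3 CPM (log2 fold change 0.46 ± 0.037 SE, edgeR adjusted p = 1.48e-09). Of 16 progenitor and egress genes 2 rose and 4 fell (median -0.088). Tcf7, the factor of stem-like T cells, had 39.5 and 38.02 against 49.4 and 51.0 CPM (log2 fold change -0.32 ± 0.067 SE, edgeR adjusted p = 0.00139), and Slamf6 24.6 and 27.0 against 31.9 and 36.8 CPM (log2 fold change -0.36 ± 0.080 SE, edgeR adjusted p = 0.00250).

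Proliferation genes fell. Of 16 tested, 14 fell and 0 rose (median -0.48). Rrm2, a subunit of ribonucleotide reductase, had 129.6 and 78.9 CPM in Ifng-detected cells of replicates 1 and 2 and 196 and 135 CPM in undetected cells (log2 fold change -0.63 ± 0.045 SE, edgeR adjusted p = 3.05e-10), and Mki67 33.0 and 34.2 against 54.7 and 48.0 CPM (log2 fold change -0.56 ± 0.073 SE, edgeR adjusted p = 4.39e-06). These falls depended on the thinning: without it Rrm2 was at -0.049 and was not called, and Mki67 was at 0.017 on the log2 scale. Mki67 was at 0.27 and Rrm2 at -0.15 among cells with fewer than 2 proliferation UMIs, a set chosen by such genes. Ribosomal protein genes were at 0 calls of 13 (median 0.0026). Of 15 genes of glycolysis and hypoxia, 9 rose (median 0.14), led by Hif1a (0.50 ± 0.030) and the glucose transporter gene Slc2a3 (0.46 ± 0.064), and 7 of 11 heat shock genes rose (median 0.13), led by Hspa1a at 281 and 209 against 166 and 141 CPM (log2 fold change 0.72 ± 0.040 SE, edgeR adjusted p = 2.88e-12).

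Most of the largest falls were genes of other cell types. S100a8 and S100a9, neutrophil calprotectin genes, had 216 and 357 against 782 and 1425 CPM (log2 fold change -1.89 ± 0.029 SE, edgeR adjusted p = 1.24e-22) and 276 and 397 against 964 and 1620.3 CPM (log2 fold change -1.88 ± 0.034 SE, edgeR adjusted p = 1.29e-21). The log2 fold change was -1.90 for Ngp, -1.71 for Camp, -2.06 for Lcn2 and -2.42 for Ltf, all granule genes, -3.00 and -3.23 for the haemoglobin genes Hbb-bs and Hba-a1, and -2.04 and -1.86 for H2-Aa and Cd74 of MHC class II presentation. All 9 neutrophil and all 7 tested erythroid markers fell. Without cells that carried at least 2 markers of another type, 0 of 7 tested neutrophil markers were called, with S100a8 at 0.10 ± 0.063, and Hbb-bs was at 0.015 ± 0.14. Those cells were left out for carrying such markers, so the loss of these differences follows from the choice of cells. Defa24, a Paneth cell defensin, stood at 5.97 and 31.1 against 88.3 and 77.5 CPM and at -2.28 ± 0.077 without those cells. Its log2 fold change was 0.49 in a second random thinning, so its direction rests on the draw.

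Several T cell genes had much the same fold changes without the cells that carried markers of another type. Il2 was then at 2.31, Csf2 at 1.41, Ccl4 at 1.18, Nr4a1 at 1.03, Gzma at -0.50, Cd8a at -0.64 and Rrm2 at -0.65 on the log2 scale. Not all calls held there: the small rises of Cd4 and Stat4, among others, were no longer called.

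Levels followed the number of Ifng UMIs in the cell. Over cells with 0, 1, 2, 3 to 5 and 6 or more Ifng UMIs, Ccl4 stood at 2538, 3651, 4744, 6993 and 15744 CPM in replicate 1 and at 2836, 4114, 5910.3, 7624 and 15929.9 CPM in replicate 2. Csf2 had 86.7, 116, 185, 261 and 976 CPM and 79.4, 90.0, 102, 266 and 838 CPM. Both climbed at each step in both libraries, most steeply at the last, and cells just inside the rule (1 UMI) lay closer to cells just outside it (0 UMIs) than to the highest group. Nr4a1 went from 79.7 and 92.7 CPM at 0 UMIs to 379 and 385 CPM at 6 or more. Il2 had 13.0, 13.7, 10.6, 51.1 and 477 CPM and 14.02, 28.9, 18.2, 83.8 and 198 CPM, with no steady order below 3 Ifng UMIs. Tbx21 had 38.2, 39.8, 43.9, 51.1 and 92.3 CPM and 37.1, 38.3, 40.6, 51.5 and 70.1 CPM.

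Gzma and Cd8a went down at every step. Gzma had 18578, 14437, 11647, 8636 and 6615 CPM in replicate 1 and 17075, 14942, 12329.7, 10651 and 7884 CPM in replicate 2, and Cd8a 594, 441, 373, 250.1 and 175 CPM and 543, 442, 337, 241 and 148 CPM. Ccl5 was highest at 2 Ifng UMIs and lowest at 6 or more, with 31542, 32641, 33239.9, 31838 and 23054 CPM and 34453, 37554, 38869.8, 35962 and 28017 CPM.

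**Figure D4:**
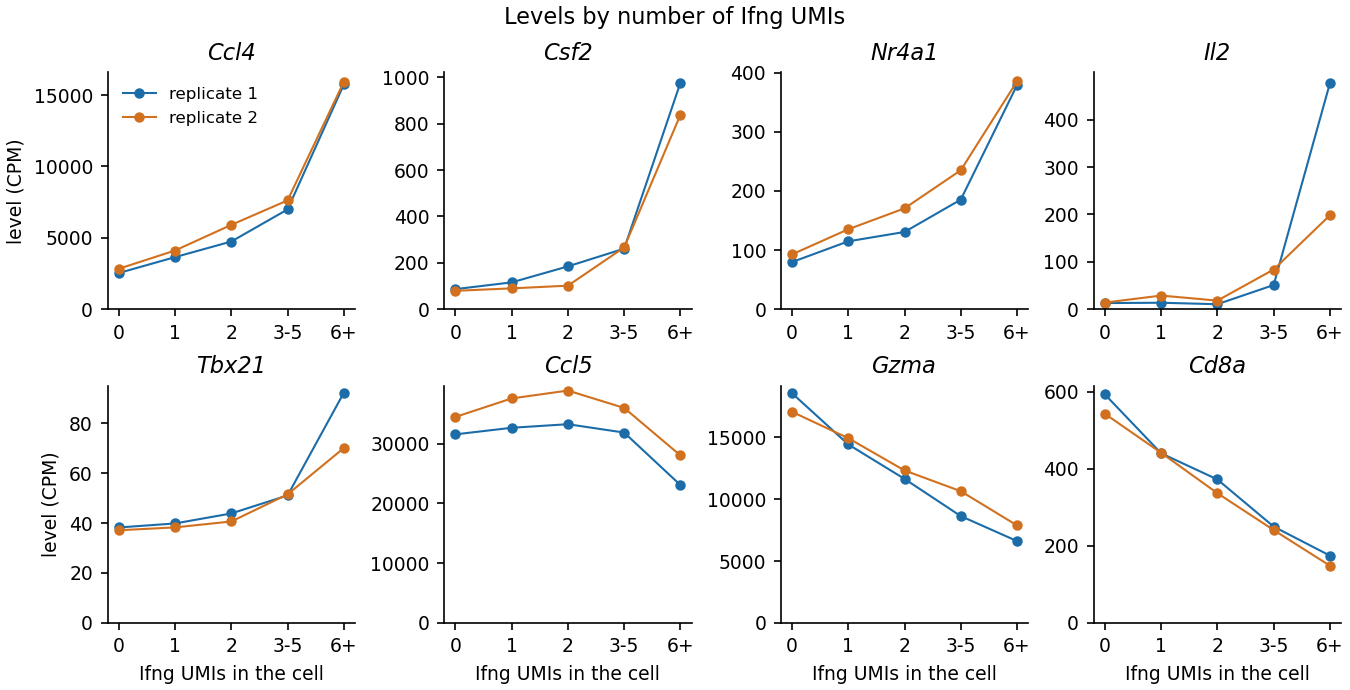
Level (y axis, CPM) of 8 genes by the number of Ifng UMIs in the cell (x axis: 0, 1, 2, 3 to 5, 6 or more) in replicate 1 (blue) and replicate 2 (orange). Ccl4, Csf2, Nr4a1 and Tbx21 climb with Ifng in both libraries, Il2 is high in the last group, and Gzma and Cd8a go down.

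Within Ifng-detected cells, those with 2 or more Ifng UMIs (3378 and 3722 cells) were tested against those with 1 (3547 and 3554 cells). Of 10220 genes, 567 were called (5.55%), of which 414 rose (4.05%) and 153 fell (1.5%), and the median log2 fold change over all genes was 0.00026. The cells with 1 UMI belong to the Ifng-detected class in the comparison above, so the 2 comparisons share cells, and each comparison's own values are given. All 21 immediate early genes rose here too, with a median log2 fold change of 0.56, as did 11 of 13 cytokine genes (median 1.31), 4 of 7 chemokine genes (median 1.09) and 11 of 17 NF-kB genes (median 0.36). Csf2 had 356 and 308 against 116 and 90.0 CPM (log2 fold change 1.73 ± 0.050 SE, edgeR adjusted p = 3.24e-16) and Ccl3 1644 and 1981 against 637 and 762 CPM (log2 fold change 1.42 ± 0.029 SE, edgeR adjusted p = 1.58e-18). Gzma fell (9614 and 10824 against 14437 and 14942 CPM, log2 fold change -0.48 ± 0.030 SE, edgeR adjusted p = 1.97e-10), while Ccl5 did not pass (-0.035 ± 0.028, edgeR adjusted p = 0.625). Proliferation genes fell in 11 of 16 cases (median -0.41). Of 7 tested neutrophil markers 6 fell and 1 rose, and their part in the other values was not tested.

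Read the other way, the share of Ifng-detected cells was higher among cells with a UMI of Il10, Egr3 or Nr4a1. It was not higher among cells with an Il2 UMI in replicate 2, as the shares for Il2 given above show. The cells and counts are those of the first comparison, so these shares are a description and no separate evidence. Of cells with an Il10 UMI, 62.5% of 616 cells had Ifng in replicate 1 (95% interval 58.5 to 66.3) and 66.3% of 728 cells in replicate 2 (95% interval 62.8 to 69.8). For Egr3 the values were 65.1% of 258 cells (95% interval 59.0 to 70.9) and 65.2% of 264 cells (95% interval 59.1 to 70.9), and for Nr4a1 59.3% of 1976 cells (95% interval 57.1 to 61.4) and 63.5% of 2261 cells (95% interval 61.5 to 65.5). Cells with a Cd8a UMI had Ifng in 37.8% of 5023 cells (95% interval 36.4 to 39.1) and 40.9% of 4384 cells (95% interval 39.5 to 42.4), and cells with an Mki67 UMI in 35.4% of 845 cells (95% interval 32.2 to 38.7) and 43.2% of 745 cells (95% interval 39.6 to 46.9). These are exact binomial intervals for counting error, set beside 45.4% and 49.0% for all T cells.

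The comparison was repeated in cells without a Cd8a UMI after thinning, 10509 Ifng-detected and 10183 undetected cells. Part of these cells had a Cd8a UMI at full depth. With both genes read without thinning, 5930 Ifng-detected and 2921 undetected cells of replicate 1 lacked Cd8a, against 5028 and 5209 after it. In replicate 2 the numbers were 6397 and 2360 against 5481 and 4974. Of 10909 genes, 706 rose (6.47%) and 601 fell (5.51%), with a median log2 fold change of -0.0025 over all genes. The activation genes kept their direction: 20 of 21 immediate early genes rose (median 0.59), 13 of 17 NF-kB genes (median 0.33) and 11 of 14 cytokine genes (median 0.89). Ccl4 stood at 5927 and 6818 CPM in Ifng-detected cells of replicates 1 and 2 and 2396 and 2864 CPM in undetected cells (log2 fold change 1.33 ± 0.018 SE, edgeR adjusted p = 1.35e-77), Csf2 at 284 and 251 against 117 and 106 CPM (log2 fold change 1.32 ± 0.042 SE, edgeR adjusted p = 1.73e-47) and Nr4a1 at 175 and 213 against 96.5 and 115 CPM (log2 fold change 0.93 ± 0.045 SE, edgeR adjusted p = 3.97e-33). These cells are part of the first comparison, so like directions are no separate evidence. Both fits had 1 residual degree of freedom from 2 libraries. Sharing of variance across genes gave a median of 89.8 total degrees of freedom here, against 22.1 in the first comparison. The size of the p-values can therefore not be compared between the 2 fits.

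Gzmb, Itgae and Ccr9 did not pass in this set, while Gzma, Itgb7 and Itgb1 fell. Gzmb had 2749 and 2804 against 2857 and 2763 CPM (log2 fold change 0.035 ± 0.019 SE, edgeR adjusted p = 0.293), with overlapping groups, and Gzma 5923 and 6692 against 7429 and 7028 CPM (log2 fold change -0.15 ± 0.022 SE, edgeR adjusted p = 5.90e-08). Itgae was at -0.090 ± 0.047 (edgeR adjusted p = 0.262) and Ccr9 at -0.14 ± 0.067 (0.175). The 16 genes of the T cell receptor complex and its first kinases were all called as rising by small amounts (median 0.14). Of 16 progenitor genes 7 fell and 1 rose (median -0.28), with Tcf7 at 43.9 and 44.8 against 70.6 and 67.0 CPM (log2 fold change -0.58 ± 0.071 SE, edgeR adjusted p = 7.80e-11) and Slamf6 at -0.55 ± 0.084. Lag3 had 179 and 215 against 128 and 135 CPM (log2 fold change 0.64 ± 0.044 SE, edgeR adjusted p = 5.80e-23). Proliferation genes fell in 13 of 16 cases (median -0.46). Neutrophil markers fell here as well, 9 of 9, and their part in the T cell values of this set was not tested gene by gene. Without other-type cells, 884 genes were called in this set, against 1307.

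Whether the Ifng difference itself depended on Cd8a was tested with an interaction term over 8 sums. Of 10866 genes, 61 had a higher (0.561%) and 18 a lower (0.166%) fold change in Cd8a-detected than in Cd8a-undetected cells. Ccl4 had 5927 and 6818 against 2396 and 2864 CPM in Cd8a-undetected cells and 4587 and 4978 against 2775 and 2782 CPM in Cd8a-detected cells, so it rose in both and by less in the latter (log2 difference -0.51 ± 0.061 SE, edgeR adjusted p = 7.54e-05). Ccl3 (-0.67), Lag3 (-0.51) and Ccl5 (-0.34) also had lower fold changes in Cd8a-detected cells. Ccl5 had 27764 and 32487 against 22731 and 27131 CPM in Cd8a-undetected cells (log2 fold change 0.33 ± 0.035 SE). In Cd8a-detected cells it had 42440 and 49076 against 46224 and 48518 CPM (-0.012 ± 0.035 SE). In this fit Lag3 was at 0.64 ± 0.061 in Cd8a-undetected and 0.12 ± 0.065 in Cd8a-detected cells (log2 ± SE). For Gzmb the levels were 2749 and 2804 against 2857 and 2763 CPM in Cd8a-undetected and 8879 and 9384 against 11440.2 and 10396 CPM in Cd8a-detected cells (log2 difference -0.25 ± 0.056 SE, edgeR adjusted p = 0.0291). Gzmb was thus higher in cells with Cd8a, and its fall with Ifng was in those cells. The log2 fold change was -0.21 ± 0.039 SE there and 0.035 ± 0.040 SE in Cd8a-undetected cells. This difference was called under 7 of 11 other settings, and not by DESeq2.

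Tcf7 had 43.9 and 44.8 against 70.6 and 67.0 CPM in Cd8a-undetected cells and 27.8 and 17.5 against 14.1 and 20.3 CPM in Cd8a-detected cells (log2 difference 1.05 ± 0.22 SE, edgeR adjusted p = 0.0201), and in the latter the libraries went opposite ways. Ccr2 had 231 and 251 against 198 and 217 CPM and 87.9 and 89.1 against 49.3 and 51.8 CPM (log2 difference 0.58 ± 0.097 SE, edgeR adjusted p = 0.00176), and Cd28 432 and 461 against 325 and 362 CPM and 170.4 and 169 against 96.2 and 90.1 CPM (log2 difference 0.47 ± 0.087 SE, edgeR adjusted p = 0.00500). Both receptor genes were lower in Cd8a-detected cells and had the larger rise with Ifng there. Il2 had 79.3 and 70.1 against 16.5 and 17.7 CPM and 10.5 and 5.57 against 7.25 and 6.95 CPM (log2 difference -1.94 ± 0.30 SE, edgeR adjusted p = 7.63e-04), but counted by cells its difference was 0.049 (edgeR adjusted p = 0.988). Cd2 was called under 11 of 11 other settings that give a test with the block, Ccr2 under 10, Ccl4 under 9 and Il22 under 4 of 10. Without the block no gene was called, with 455 at an unadjusted p under 0.05, against 79 with it and 32 by DESeq2.

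**Figure D5:**
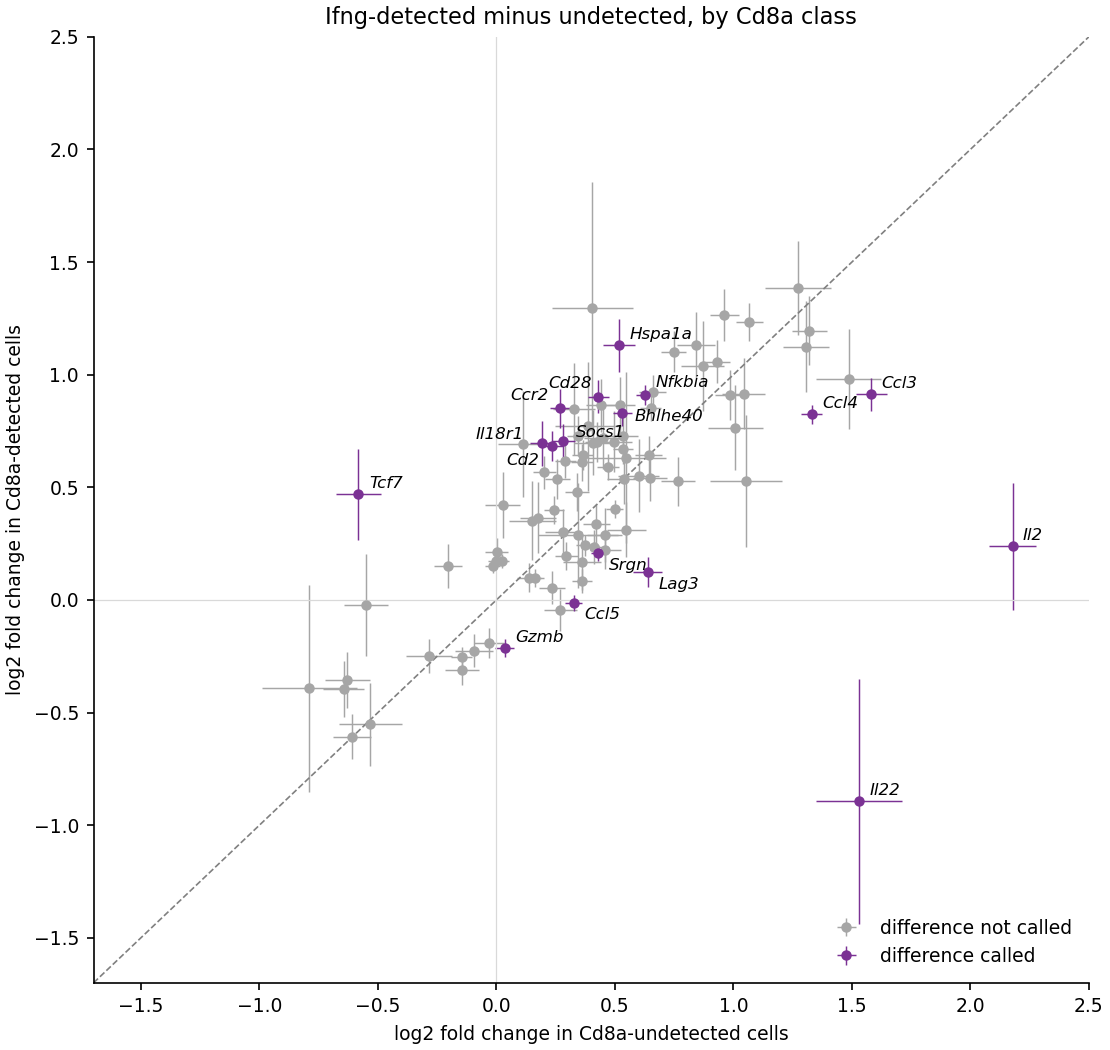
Log2 fold change of Ifng-detected against undetected cells in Cd8a-undetected cells (x axis) and in Cd8a-detected cells (y axis) for 95 named genes of at least 10 CPM, markers of other cell types left out; bars are SEs and the dashed line marks equal values. The 17 purple genes had a called difference: Ccl3, Ccl4, Lag3 and Il2 lie below the line, and Tcf7, Ccr2 and Cd28 above it.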

How the data were processed

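Single-cell RNA of 2 expression libraries was analysed, each with a hashtag library. The deposited files hold raw UMI counts per gene and barcode made by the authors with Cell Ranger 3.1.0 on mm10, per the file headers and the submitters' processing notes, with all barcodes kept. The aligner settings and the gene annotation are not given in the sources used here. Gene positions were matched by gene ID to GENCODE (373 of 373 IDs), and promoter sequences to RefSeq.

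Cells were chosen as stated above and thinned once with a fixed seed. The Cd3 limit was applied before the thinning. Doublets were not called, and cells with at least 2 markers of another cell type were left out as an alternative. The UMIs of each class were summed per library and tested with edgeR 4.0.16 in R 4.3.3 (TMM factors, filterByExpr, quasi-likelihood F test, library as a block, Ifng removed). The block rests on both sums of a pair coming from the same library. An SE is the fold change divided by the square root of F. Cells are not replicates: the fits have 4 sums, or 8 with the interaction. The procedure was tested on simulated data. Alternatives used DESeq2 1.42.0, other size factors, filters, thinning depths and cell sets. Those with 3 or more Ifng UMIs, without shared barcodes and with cells counted in place of UMIs were chosen after seeing the data.

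The text names genes from a panel of 31, up to 4 called genes with the largest change from each of 30 lists (370 genes), and the 10 largest rises and falls with at least 50 CPM. The members and lists were chosen with earlier results of these data known.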

Additional observations from a re-analysis of the deposited data

Results flagged for a closer look

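For 79 genes the difference between Ifng-detected and undetected cells was itself called different between Cd8a-detected and Cd8a-undetected cells (edgeR interaction term). The values that follow are log2 differences, that is, the Ifng fold change in Cd8a-detected minus that in Cd8a-undetected cells. Among effector genes they were Il2 -1.94, Il22 -2.42, Ccl3 -0.67, Ccl4 -0.51, Ccl5 -0.34, Gzmb -0.25, Srgn -0.22 and Lag3 -0.51. Il22 turned sign without thinning (0.39), at 1000 UMIs (0.076) and in a second thinning (0.58). Among regulators and receptors they were Bhlhe40 0.30, Tcf7 1.05, Il18r1 0.50, Socs1 0.42, Nfkbia 0.28, Cd2 0.45, Cd28 0.47 and Ccr2 0.58, and Hspa1a, a heat shock gene, was at 0.61.

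Markers of other cell types had large positive values: Ltf 2.01, Lcn2 2.14, Ngp 2.02, S100a8 1.85, S100a9 1.86, Camp 1.99, Lyz2 1.54, Fcer1g 2.22 and Fabp1 1.62. In cells without markers of another type, a set chosen by such genes, none of these 9 was called, and they ranged from -0.81 (Ltf) to 1.17 (Fcer1g), with Lyz2 at 0.51. Fabp1 turned sign without thinning (-1.30), in a second thinning (-0.42), without other-type cells (-0.38) and without shared barcodes (-0.35), and Lcn2 was at -0.0011 without thinning.

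The hashtag libraries, which no comparison used, held Ifng UMIs: 151 of 157432 in replicate 1 and 208 of 208698 in replicate 2. Only part of them lay in barcodes of the T cells, and the rest in barcodes without a class. Those in T cell barcodes followed the class of the same barcode in the expression library. Cells with 0 Ifng UMIs there had 6 and 9 in the hashtag library (148 and 190.2 CPM of all gene UMIs), cells with 1 had 13 and 16 (918 and 797 CPM), and cells with 2 or more had 43 and 67 (3437 and 3411 CPM). Whether these are the same molecules read again was not tested.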

How the results depend on the processing

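In place of 1588 genes, 308 were called by DESeq2, 235 without the replicate block, 750 without thinning, 830 at 1000 UMIs and 985 without proliferating cells. A second random thinning shared 1158 of the 1588 calls. In Cd8a-undetected cells, in place of 1307, DESeq2 called 218, the fit without the replicate block 158, that without the 8% of cells with the most UMIs 864 and that without proliferating cells 549. The difference between Cd8a classes, 79 genes, became 136 with no filter on low counts, 32 by DESeq2, 0 without the replicate block (455 at an unadjusted p under 0.05), 19 without thinning, 151 in the second thinning, 31 without proliferating cells and 33 when cells were counted in place of UMIs. For 2 or more Ifng UMIs against 1, DESeq2 called 146 and the fit without the replicate block 61, against 567. The mean share of Ifng-detected cells, 47.2%, was 68.8% without thinning, 37.7% at 1000 UMIs and 45.4% to 49.0% with a replicate left out. With 1 replicate no test can be had, and all 128 called genes named here kept their sign in each library.

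Log2 fold changes of these genes turned sign as follows. Without cells with markers of another type they were Fcer1g 0.13, Lcn2 0.051, Mcpt8 0.48, Lyz2 0.13, H2-Aa 0.16, Cd74 0.047, Hba-a2 0.097, Hbb-bs 0.015, Krt19 0.19, Ngp 0.18, S100a8 0.10, S100a9 0.11 and Camp 0.20. Without thinning they were Mki67 0.017, Ccnb2 0.094, Cdc20 0.096, mt-Nd5 -0.0077, Hbb-bt 0.63, Hba-a2 1.36, Krt8 2.18, Fabp1 1.59, Krt19 2.14, Fabp2 0.67 and Defa24 0.23. Without proliferating cells Mki67 was at 0.27 and Cdc20 at 0.34, at 1000 UMIs Mcpt8 was at 0.016, and in the second thinning Defa24 was at 0.49. With cells counted in place of UMIs they were Gzma 0.027, Gzmb 0.054, Defa24 0.045, Ngp 0.00057, S100a8 0.060, S100a9 0.053 and Camp 0.015. These values are scaled to the detections of all genes in a class, not to its number of cells. The share of cells with a Gzma UMI, given above, was slightly lower in Ifng-detected cells in both libraries. The causes were not tested. Of the 128 called genes, 86 stayed called in the same direction by DESeq2, 77 without the replicate block, 95 without cells of other types and 126 without barcodes shared by both libraries.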
